A study of Mus musculus with 12 samples.

Results

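Tumours in which the labels place galectin-3 in neither compartment were set against tumours in which they place it in both. The first were grown from the melanoma line Tm1G3, labelled as silenced for galectin-3, in hosts of genotype Gal3 -/-, and are called KO/Tm1G3 here. The second were grown from Tm1N3, labelled as expressing galectin-3, in wild-type hosts (WT/Tm1N3). All 3 arrays of each of these groups were taken by their labels, 6 of the 12 arrays of the series, and all 1246 probe sets were compared. Tm1N3 tumours of knockout hosts (KO/Tm1N3) and Tm1G3 tumours of wild-type hosts (WT/Tm1G3), also 3 arrays each, changed 1 compartment at a time and were used to divide the difference. The hosts were syngeneic with the melanoma line, and the silenced line was used for overexpression from a galectin-3 coding plasmid, per the series' design text. Whether each line is a single clone, and the age, sex and strain of the mice and the time of harvest, are not stated in the labels. That replicates were separate animals is not stated in the labels, and the p-values cover only the spread among these arrays, which may in part be technical.

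Galectin-3, encoded by Lgals3, is a lectin with a single carbohydrate-recognition domain and a long flexible N-terminal tail through which its molecules join together. It binds beta-galactosides such as the N-acetyllactosamine units of branched N-glycans. Outside the cell it cross-links glycoprotein receptors and matrix proteins, and inside the cell it takes part in signalling and splicing. In tumours it comes both from cancer cells and from host cells, macrophages above all, and the series set out to tell the contributions of these sources to melanoma growth apart.

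Lgals3 itself was read by 1 probe set, whose suffix marks probes shared between transcripts. Its log2 level was 9.80, 9.72 and 10.39 on the WT/Tm1N3 arrays and 9.15, 9.80 and 8.98 on the KO/Tm1G3 arrays. The groups overlapped, and the gene stayed between the 85.2 and 94.3 percentile of probe sets on all 6 arrays. The difference, KO/Tm1G3 minus WT/Tm1N3, was -0.66 (95% interval -1.39 to 0.06; two-sided exact permutation p = 0.2, where 0.1 is the smallest p that 3 against 3 arrays allow). The labels do not say which part of the gene the probes cover, or whether the deletion, the silencing or the plasmid would change what they read. The array therefore does not settle whether the groups carry the labelled galectin-3 status, and the design text does not say which line name belongs to the cells that received the plasmid. Were the line labels reversed, each of the groups compared would hold galectin-3 in 1 compartment, and the direction of every line difference with respect to galectin-3 would turn. Each difference below is therefore one between labelled groups.

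The arrays held log2 values summarised by RMA, and with 3 arrays a group their number limits how precisely any level is known. Pearson correlations across probe sets were 0.991 to 0.996 within WT/Tm1N3, 0.992 to 0.998 within KO/Tm1G3 and 0.988 to 0.993 between them. The number that opens each title ran from 2 to 23 on knockout-host arrays and from 31 to 52 on wild-type-host arrays, so host genotype and the order of these numbers cannot be told apart. Of the melanocyte list 3 of 16 genes were measured, and the pigment genes that define the lineage (Tyr, Dct, Pmel, Mlana) were not among them. In bulk tumour RNA, fewer cells of a type and less RNA per cell cannot be told apart.

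Between KO/Tm1G3 and WT/Tm1N3, 11 of 1246 probe sets (0.883%) passed, 7 of them higher (0.562%) and 4 lower (0.321%) in KO/Tm1G3, and all 11 belong to named genes. Passing means an adjusted p under 0.05, computed by limma and adjusted over all probe sets by the Benjamini-Hochberg method. Slc35f1, Il18, Il17rd, Frem1, Il17rc, Havcr2 and Sar1a were higher, and Hs3st1, Il3ra, Fbln5 and Cd209e were lower. They fall into cytokine and checkpoint receptors with 1 cytokine, a heparan sulfate enzyme, matrix proteins, a lectin and proteins of transport. Unadjusted p was under 0.05 for 168 probe sets (13.5%), 97 of them higher (7.78%) and 71 lower (5.7%), and the 2 groups did not overlap for 233 (18.7%). The median difference over all probe sets was -0.013 and the middle 90% ran from -0.27 to 0.36 on the log2 scale.

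Single arrays moved the count. It was 5 without WT/Tm1N3 replicate 3, 5 without KO/Tm1G3 replicate 2, 7 without KO/Tm1G3 replicate 1, 17 without WT/Tm1N3 replicate 1 and 23 without WT/Tm1G3 replicate 1. It was 93 with array quality weights in limma, and quantile normalizing the values again gave 7 higher and 8 lower.

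**Figure D1:**
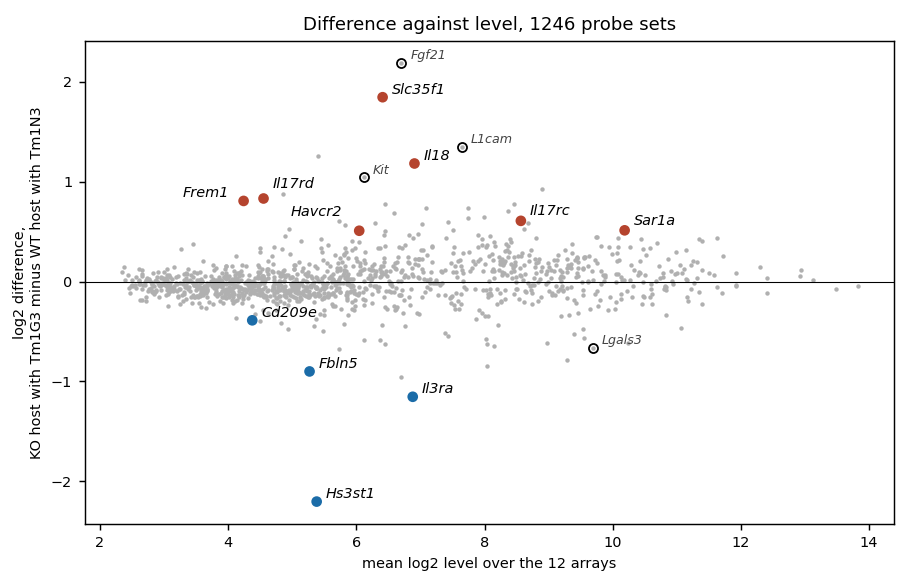
Log2 difference (KO/Tm1G3 minus WT/Tm1N3, vertical axis) of 1246 probe sets against their mean log2 level over the 12 arrays (horizontal axis). Red and blue points are the 7 higher and 4 lower probe sets past an adjusted p of 0.05, and open circles mark Lgals3 and 3 probe sets with large differences (Fgf21, L1cam and Kit) that did not pass.

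The cytokine gene Il18 had the smallest p of all probe sets. Interleukin-18 is made as an inactive precursor, cut by caspase-1 in the inflammasome, and drives T cells and NK cells to make interferon-gamma. On the WT/Tm1N3 arrays Il18 stood at 6.29, 6.20 and 6.39, and on the KO/Tm1G3 arrays at 7.29, 7.43 and 7.71. Every KO/Tm1G3 array lay above every WT/Tm1N3 array, with a gap of 0.90 between the groups. The difference was 1.18 ± 0.11 (SE; 2.27-fold, adjusted p = 0.000979).

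Havcr2 encodes TIM-3, an inhibitory checkpoint receptor of T cells and myeloid cells whose reported ligands include galectin-9. It stood at 5.82, 5.85 and 5.85 in WT/Tm1N3 and at 6.43, 6.31 and 6.32 in KO/Tm1G3. The levels were nearly alike within each group, and the groups lay apart. The difference was modest in size, 0.51 ± 0.07 (SE; 1.42-fold, adjusted p = 0.00518). Lgals9, which encodes galectin-9, differed by 0.71 ± 0.29 (SE) in the same direction and did not pass (adjusted p = 0.319).

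Il3ra, the alpha chain of the interleukin-3 receptor, gives the receptor its specificity and pairs with the common beta chain on myeloid progenitors, basophils and plasmacytoid dendritic cells. It was 7.72, 7.32 and 7.40 in WT/Tm1N3 against 6.42, 6.36 and 6.20 in KO/Tm1G3. All KO/Tm1G3 arrays were the lower, by -1.15 ± 0.16 in the mean (SE; 2.22-fold lower, adjusted p = 0.00642).

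In the interleukin-17 receptor family 2 members rose. Il17rc, which encodes a subunit of the receptor for interleukin-17A and interleukin-17F, was 8.45, 8.12 and 8.29 in WT/Tm1N3 and 9.01, 8.88 and 8.80 in KO/Tm1G3, a difference of 0.61 ± 0.09 (SE; 1.52-fold, adjusted p = 0.0127). Il17rd, which encodes a receptor-like protein also known as Sef that restrains fibroblast growth factor signalling, was 4.01, 4.37 and 4.19 against 5.24, 4.92 and 4.90, a difference of 0.83 ± 0.13 (SE; 1.78-fold, adjusted p = 0.0127). For neither gene did the groups overlap. Il17ra, the chain that pairs with Il17rc, differed by 0.32 ± 0.12 and did not pass (adjusted p = 0.243), nor did the ligand gene Il17b at -0.53 ± 0.17 (adjusted p = 0.187).

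The difference farthest from 0 among all probe sets was that of Hs3st1. Its enzyme adds the 3-O-sulfate that completes the antithrombin-binding site of heparan sulfate. Hs3st1 was 7.07, 6.99 and 5.91 in WT/Tm1N3 and 4.55, 4.44 and 4.37 in KO/Tm1G3. The KO/Tm1G3 levels were close together, whereas 1 WT/Tm1N3 array lay well below the others of its group, still above all KO/Tm1G3 arrays. The fall was 4.61-fold (-2.20 ± 0.37, SE; adjusted p = 0.0148). Slc35f1, a member of the solute carrier 35 family named for its nucleotide sugar transporters, went the other way. It was 5.41, 5.98 and 5.56 in WT/Tm1N3 and 7.69, 7.69 and 7.11 in KO/Tm1G3, a 3.60-fold rise (1.85 ± 0.31, SE; adjusted p = 0.0148). The probe sets of both genes, and that of Il18, carry suffixes for shared probes, so their signal may hold related transcripts.

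Of the matrix genes, Frem1 rose and Fbln5 fell. FREM1 is a secreted protein of the Fraser complex, which ties basement membrane to the tissue beneath it. Frem1 was 3.70, 3.90 and 3.95 in WT/Tm1N3 and 4.72, 4.51 and 4.75 in KO/Tm1G3 (0.81 ± 0.08, SE; 1.75-fold, adjusted p = 0.00116). Fibulin-5, the product of Fbln5, organises elastic fibres and binds integrins. Fbln5 was 5.55, 5.94 and 5.61 against 4.60, 4.95 and 4.85 (-0.90 ± 0.16, SE; 1.87-fold lower, adjusted p = 0.0247). In both genes the 3 arrays of one group lay wholly outside the range of the other.

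Cd209e and Sar1a showed small differences, with levels close together within each group. Cd209e, a mouse relative of the C-type lectin DC-SIGN, was 4.55, 4.51 and 4.65 in WT/Tm1N3 and 4.14, 4.15 and 4.26 in KO/Tm1G3 (-0.39 ± 0.06, SE; 1.31-fold lower, adjusted p = 0.0148). Its mean level ranked low among probe sets (28.1 percentile). Cd209e was not alone in this. Frem1 was dimmer still, with a mean level over all arrays of 4.24 against 4.375 for Cd209e, and Il17rd was little brighter at 4.551. Sar1a encodes the small GTPase that starts COPII coat assembly, by which cargo leaves the endoplasmic reticulum. It was 10.05, 9.92 and 9.85 against 10.53, 10.46 and 10.38 (0.51 ± 0.08, SE; 1.43-fold higher, adjusted p = 0.0135).

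Leaving out each of the 12 arrays in turn gave 12 fits, and Il18, Frem1, Havcr2 and Il3ra passed in every one of them. Il17rd passed in 11, losing its call without WT/Tm1N3 replicate 3. Il17rc, Sar1a and Cd209e passed in 9, and each lost its call without WT/Tm1N3 replicate 3 and without KO/Tm1G3 replicates 1 and 2. Slc35f1 passed in 8, with the same losses and another without WT/Tm1N3 replicate 1. Hs3st1 and Fbln5 passed in 7. Both lost their call without any 1 of the KO/Tm1G3 arrays, Hs3st1 also without WT/Tm1N3 replicates 1 and 2, and Fbln5 also without WT/Tm1N3 replicates 2 and 3. In these fits the differences ran from -2.58 to -2.00 for Hs3st1 and from -0.97 to -0.78 for Fbln5.

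**Figure D2:**
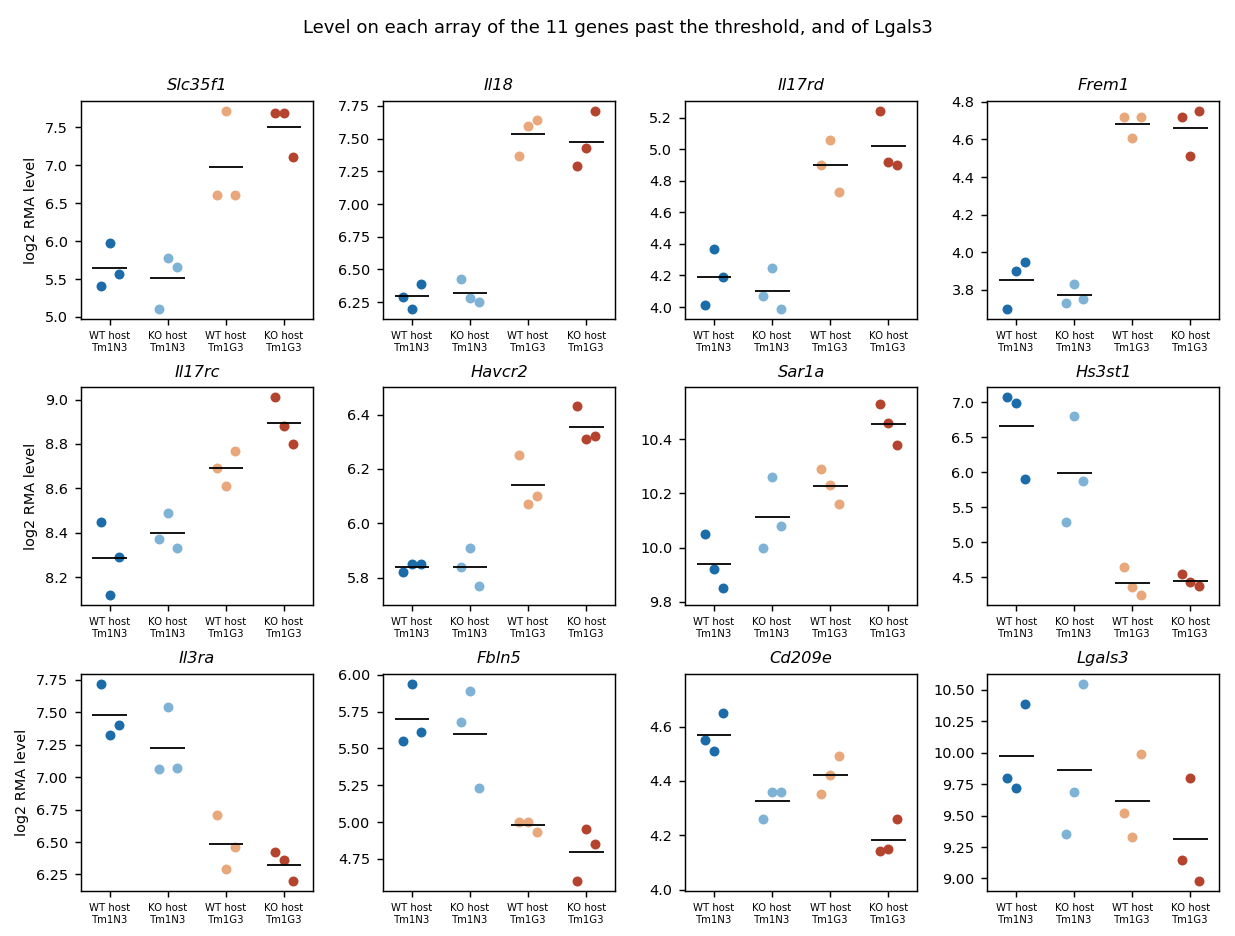
Log2 RMA level (vertical axes, which do not start at 0) of the 11 genes past the threshold and of Lgals3 on each array, by host and tumour line. Points are arrays and lines are means of 3 arrays. For each of the 11 genes the WT/Tm1N3 and KO/Tm1G3 points do not overlap, and for Lgals3 they do.

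The 11 genes have different start regions, and those of 4 are shown: the genes with the smallest p and the largest difference among the higher (Il18, Slc35f1) and the lower (Il3ra, Hs3st1). Each line gives the 250 bases before the RefSeq start on GRCm38.p6, 5′ to 3′ on the gene's own strand, with capitals where 1 of 6 searched motifs matched on either strand. The windows are chr9:50554450-50554699 (plus strand) for Il18, chr10:52690251-52690500 (plus strand) for Slc35f1, chr14:14346245-14346494 (plus strand) for Il3ra and chr5:39644632-39644881 (minus strand) for Hs3st1.
Il18: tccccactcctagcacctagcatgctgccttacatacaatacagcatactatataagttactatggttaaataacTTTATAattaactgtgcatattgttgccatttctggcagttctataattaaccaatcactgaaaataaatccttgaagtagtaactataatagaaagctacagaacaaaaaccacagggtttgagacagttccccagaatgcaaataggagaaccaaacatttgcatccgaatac
Slc35f1: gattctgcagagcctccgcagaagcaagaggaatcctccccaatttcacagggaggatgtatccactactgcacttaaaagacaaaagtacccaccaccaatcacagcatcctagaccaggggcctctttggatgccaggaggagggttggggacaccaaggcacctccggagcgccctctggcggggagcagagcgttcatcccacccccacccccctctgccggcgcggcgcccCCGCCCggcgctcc
Il3ra: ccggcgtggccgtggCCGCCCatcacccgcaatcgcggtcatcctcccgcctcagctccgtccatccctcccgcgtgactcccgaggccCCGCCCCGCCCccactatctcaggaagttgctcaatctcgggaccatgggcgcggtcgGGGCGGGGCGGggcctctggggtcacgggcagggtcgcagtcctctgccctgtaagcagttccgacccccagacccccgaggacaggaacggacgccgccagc
Hs3st1: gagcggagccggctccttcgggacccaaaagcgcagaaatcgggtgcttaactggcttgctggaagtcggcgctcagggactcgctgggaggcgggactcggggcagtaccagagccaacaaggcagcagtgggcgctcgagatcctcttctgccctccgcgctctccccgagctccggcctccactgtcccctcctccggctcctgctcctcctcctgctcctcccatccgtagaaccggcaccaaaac

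The motifs were the E-box CACGTG, found in 6.02% of 32851 RefSeq promoter windows of this length, the core CATGTG of the M-box bound by the melanocyte factor MITF (12.3%), the AP-1 site TGANTCA (6.75%), the interferon-gamma activated site TTCNNNGAA (7.02%), the GC box GGGCGG (32.7%) and the TATA box TATAAA (12.4%). The Il18 window held 1 match to the TATA box letters, on the opposite strand (TTTATA), and 35.6% G and C, against a median of 52.4% over all windows. That of Slc35f1 held 1 GC box and 62.8% G and C. The window of Il3ra held 5 GC boxes, some overlapping as runs, and 72.4% G and C, and that of Hs3st1 held none of the 6 motifs and 66.0% G and C. The windows shown thus did not share 1 kind of start region by these letters, which are a description of the windows and not of any factor's binding. Those of the other genes past the threshold are not described here.

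The design allows each difference to be divided exactly. KO/Tm1G3 minus WT/Tm1N3 is the sum of the mean difference between the lines over both hosts (Tm1G3 minus Tm1N3, the line part) and the mean difference between the hosts over both lines (knockout minus wild-type, the host part). The line part was past the threshold for 53 of 1246 probe sets (4.25%), 37 higher (2.97%) and 16 lower (1.28%) in Tm1G3. Quantile normalizing again split it into 28 higher and 29 lower, and the count was 32 without KO/Tm1G3 replicate 2 and 131 with array weights. The host part was past it for 0 (limma; 78 at an unadjusted p under 0.05, 6.26%; smallest adjusted p = 0.226).

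For 10 of the 11 genes the line part was the larger, and for the same 10 it passed by itself. These parts come from arrays that include the 6 used above, so they divide the difference and do not repeat it. Il18 had a line part of 1.20 (95% interval 1.02 to 1.38) and a host part of -0.02 (-0.20 to 0.16), and Frem1 had 0.86 (0.73 to 0.99) and -0.05 (-0.18 to 0.08). Il17rd was alike, with a line part of 0.81 (0.61 to 1.01) and a host part of 0.02 (-0.18 to 0.22). In these 3 genes nearly the whole difference went with the tumour line. Hs3st1 had a line part of -1.89 (-2.47 to -1.31) and a host part of -0.31 (-0.89 to 0.26), and Slc35f1 had 1.65 (1.17 to 2.14) and 0.19 (-0.29 to 0.68), so the host part of either is known only within wide limits.

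Sar1a and Cd209e had the largest host parts relative to their line parts. Sar1a divided into a line part of 0.31 (95% interval 0.19 to 0.44) and a host part of 0.20 (0.07 to 0.33; unadjusted p = 0.0059, adjusted p = 0.680). Its group means were ordered from 9.94 in WT/Tm1N3 through 10.11 in KO/Tm1N3 and 10.23 in WT/Tm1G3 to 10.46 in KO/Tm1G3. Cd209e was the 1 gene past the threshold whose line part did not pass (-0.15, adjusted p = 0.114), and its host part was the larger, at -0.24 (-0.34 to -0.14; unadjusted p = 0.000311, adjusted p = 0.226). That was the smallest p of all host parts. On the KO/Tm1N3 arrays Cd209e stood at 4.26, 4.36 and 4.36, below all WT/Tm1N3 arrays, and on the WT/Tm1G3 arrays at 4.35, 4.42 and 4.49. For none of the other 10 genes did the KO/Tm1N3 arrays lie apart from the WT/Tm1N3 arrays, as they did for 7.62% of all probe sets. The WT/Tm1G3 arrays lay apart from the WT/Tm1N3 arrays for all 11 (16.9% of all probe sets), but the 11 were chosen with the same WT/Tm1N3 arrays, so this count is a description only.

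Cd209b, another member of the DC-SIGN family, which is known from macrophages of lymphoid organs, had the next smallest p of the host part, at -0.32 ± 0.06 (SE; unadjusted p = 0.000363, adjusted p = 0.226). It was 4.93, 5.08 and 5.19 in WT/Tm1N3 and 4.56, 4.62 and 4.77 in KO/Tm1G3, without overlap, and its combined difference of -0.42 ± 0.09 fell short of the threshold (adjusted p = 0.0516). Another probe set of Cd209b gave -0.14. Mbl1, which encodes the soluble lectin mannose-binding protein A, was also among the 5 smallest, with a host part of -0.17 ± 0.04 (unadjusted p = 0.00324, adjusted p = 0.680). Bmp15 (-0.20 ± 0.05), a growth factor gene of the oocyte, and 1 unnamed probe set (-0.22 ± 0.05) completed the 5. All 5 ranked below the median probe set, between the 16.2 and 36.4 percentile of mean level.

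**Figure D3:**
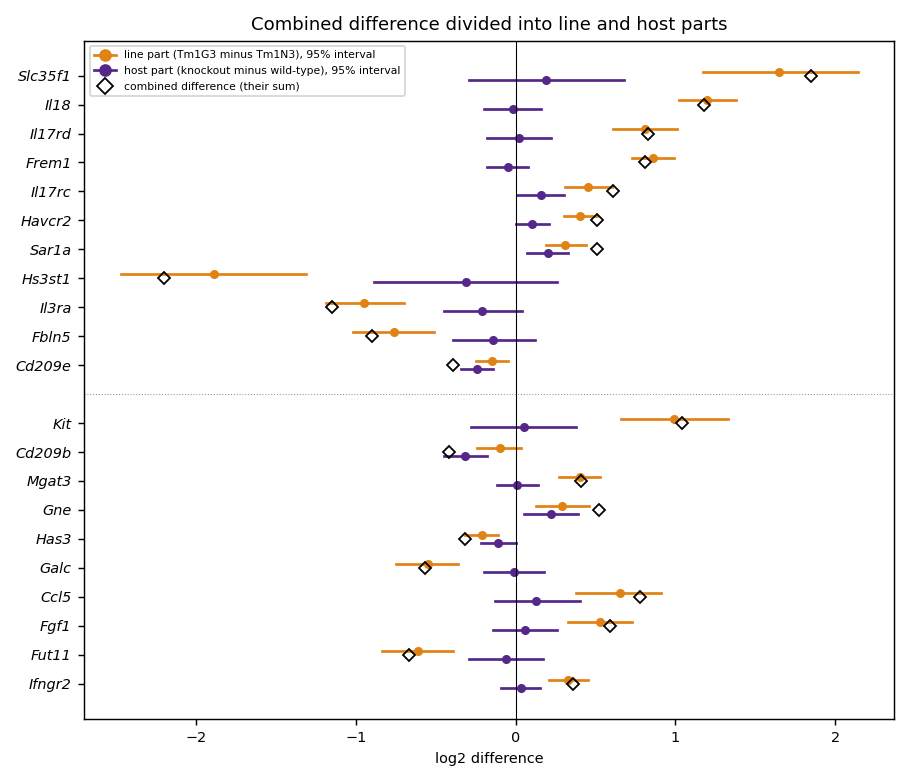
Log2 difference of KO/Tm1G3 minus WT/Tm1N3 (open diamonds) divided into its line part (orange) and its host part (purple), each with a 95% interval, for the 11 genes past the threshold (above the dotted line) and the 10 with an adjusted p from 0.05 to 0.06 (below it). The line part is the larger for 10 of the 11 genes above the dotted line, Cd209e being the other.

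A further contrast, chosen after the data were seen, set the remaining groups against each other, WT/Tm1G3 minus KO/Tm1N3. It equals the line part minus the host part and shares no array with KO/Tm1G3 minus WT/Tm1N3, although both take their spread from the same fit. Il18 again differed, by 1.22 ± 0.11 (SE; adjusted p = 0.000371), as did Frem1 by 0.91 ± 0.08 (adjusted p = 0.000371) and Il17rd by 0.79 ± 0.13 (adjusted p = 0.0187). These were 3 of the 8 probe sets past the threshold in that contrast (0.642% of 1246). For 9 of the 11 genes its 95% interval did not include 0, the exceptions being Sar1a (0.12, -0.07 to 0.30) and Cd209e (0.09, -0.05 to 0.23). The matching rule over all probe sets, an unadjusted p under 0.05 in this contrast (limma), was met by 137 of 1246 (11%).

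Whether the difference of KO/Tm1G3 from WT/Tm1N3 departed from the sum of the differences of KO/Tm1N3 and WT/Tm1G3 from WT/Tm1N3 was tested by the interaction. No probe set passed (limma; 0 of 1246 past an adjusted p of 0.05, 35 or 2.81% at an unadjusted p under 0.05, smallest adjusted p = 0.996). Among the 11 genes Havcr2 alone had an interval without 0, at 0.21 (0.01 to 0.42; unadjusted p = 0.0451, adjusted p = 0.996). Its means were 5.84 in WT/Tm1N3, 5.84 in KO/Tm1N3, 6.14 in WT/Tm1G3 and 6.35 in KO/Tm1G3, so the host difference was 0.21 ± 0.07 (SE; adjusted p = 0.752) in Tm1G3 tumours and 0.00 ± 0.07 in Tm1N3 tumours. For Hs3st1 the interaction interval ran from -0.46 to 1.86 and for Slc35f1 from -0.32 to 1.62, which leaves room for departures as large as their host parts.

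The smallest interaction p-values belonged to Igfbp4, Kit, Asah1 and Cd72, none of which passed. Igfbp4, which encodes a binding protein of insulin-like growth factors, had 0.39 ± 0.10 on 1 of its 3 probe sets (SE; unadjusted p = 0.00352), 0.40 ± 0.12 on another, and combined differences of 0.00 ± 0.07 and 0.07 ± 0.08 on these. Kit, a receptor tyrosine kinase that melanocytes need to migrate and survive, had 1.12 ± 0.30 (unadjusted p = 0.00367, adjusted p = 0.996). Its means were 5.87 in WT/Tm1N3, 5.36 in KO/Tm1N3, 6.30 in WT/Tm1G3 and 6.91 in KO/Tm1G3. Knockout hosts had the lower Kit mean with Tm1N3 and the higher with Tm1G3. Asah1, which encodes acid ceramidase, had 0.36 ± 0.11, and Cd72, a B cell co-receptor gene, 0.71 ± 0.23.

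Just outside the threshold lay 10 probe sets, with an adjusted p from 0.05 to 0.06, against Fbln5 at 0.0247 just inside it. Besides Kit (1.04 ± 0.21, SE) and Cd209b these were Mgat3, Gne, Has3, Galc, Ccl5, Fgf1, Fut11 and Ifngr2. Ccl5, a chemokine that attracts T cells and monocytes, was 8.42, 7.78 and 8.16 in WT/Tm1N3 and 8.95, 9.08 and 8.67 in KO/Tm1G3 (0.78 ± 0.17). Ifngr2, a chain of the interferon-gamma receptor, was 8.07, 8.35 and 8.17 against 8.55, 8.58 and 8.53 (0.36 ± 0.08). For all 10 the groups did not overlap, as held for 18.7% of all probe sets. The 10 were chosen by their p on the same arrays, so this count is a description only.

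The glycan genes in that band had differences of both signs. Mgat3, whose enzyme adds the bisecting N-acetylglucosamine that blocks further branching, had 0.41 ± 0.08 (SE; adjusted p = 0.0516). Gne, which starts sialic acid synthesis, had 0.52 ± 0.11 (adjusted p = 0.0521), with a host part of 0.22 ± 0.08. The lower ones were the lysosomal galactocerebrosidase gene Galc (-0.57 ± 0.12), the fucosyltransferase gene Fut11 (-0.67 ± 0.15) and the hyaluronan synthase gene Has3 (-0.32 ± 0.07).

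Some large differences had too wide a spread to pass, and 3 of them were picked after their values were seen. Fgf21, which encodes a metabolic hormone of the fibroblast growth factor family, was 6.57, 5.65 and 5.43 in WT/Tm1N3 and 8.33, 7.95 and 7.94 in KO/Tm1G3 (2.19 ± 0.59, SE; 4.57-fold, adjusted p = 0.116). L1cam, a cell adhesion molecule of neurons and of many carcinomas and melanomas, was 7.07, 7.41 and 6.81 against 8.82, 8.21 and 8.32 (1.35 ± 0.37; adjusted p = 0.127). Both lay apart without overlap. Igfbp5, another insulin-like growth factor binding protein, was 4.94, 5.13 and 4.89 in WT/Tm1N3 and 7.97, 5.62 and 5.15 in KO/Tm1G3 (1.26 ± 0.65; adjusted p = 0.436), with 1 KO/Tm1G3 array far above the rest.

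Gene lists were read by their counts beside those of all 909 named genes. Of these, 457 had positive and 452 negative differences, with a median of 0.0017, and 18.7% had groups that did not overlap. At an unadjusted p under 0.05 (limma), 85 of the 909 were higher and 51 lower, and over all 1246 probe sets the share was 13.5%. The unadjusted counts of each list below are to be read beside these. Among 10 measured galectin genes none passed (limma; 2 had an unadjusted p under 0.05), 4 differences were positive and 6 negative, and the median was -0.10. The groups did not overlap for 5 of them, among them Lgalsl (0.43 ± 0.13, SE; adjusted p = 0.174), a galectin-like gene, and Lgals9. Of 26 genes that build galectin-3 ligands, the branched N-glycans and their poly-N-acetyllactosamine arms, none passed either (limma; 5 had an unadjusted p under 0.05), 11 being positive and 15 negative with a median of -0.02. The largest were B4galt4 (0.65 ± 0.15), a galactosyltransferase gene, Mgat2 (-0.55 ± 0.14), whose enzyme opens the second antenna of complex N-glycans, and St6gal1 (0.44 ± 0.17), whose enzyme caps galactose with sialic acid.

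In the interleukin-18, interleukin-12 and interferon-gamma list, 1 of 16 genes rose (Il18), 10 differences were positive and the median was 0.07. At an unadjusted p under 0.05 (limma) 3 were higher and 0 lower, and 43.8% of the list did not overlap between groups. Its other large members were Il12rb1 (0.68 ± 0.18, SE), a receptor chain for interleukin-12 and interleukin-23, and Ifngr2. In the interleukin-17 list 2 of 11 rose (Il17rc and Il17rd), 8 differences were positive and the median was 0.02. Unadjusted p was under 0.05 for 5, and 36.4% of the list did not overlap between groups. None of 11 genes of the interleukin-1 family passed (limma; 0 at an unadjusted p under 0.05), with a median of -0.05. Il1b, its main inflammatory cytokine, had 0.58 ± 1.03.

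Of 29 CC and CXC chemokines 19 had positive differences, with a median of 0.10 and none past the threshold (limma; 3 at an unadjusted p under 0.05). After Ccl5, the largest were Cxcl12 (0.74 ± 0.31, SE), which retains cells that carry CXCR4, and Ccl12 (0.64 ± 0.34), a monocyte attractant. Another probe set of Cxcl12, somewhat dimmer, differed by -0.31, in the opposite direction, and neither passed. Chemokine receptors had 7 positive differences of 19 and a median of -0.04, with none past the threshold (limma; 2 unadjusted) and Cx3cr1 the largest at 0.41 ± 0.34.

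In the angiogenic list 11 of 17 differences were negative, with a median of -0.06, and none passed (limma; 4 unadjusted). Vegfa, the main endothelial growth factor, was 10.16, 9.54 and 9.51 in WT/Tm1N3 and 9.29, 8.99 and 8.58 in KO/Tm1G3, apart without overlap (-0.78 ± 0.22, SE; adjusted p = 0.139). Fgf1, a fibroblast growth factor, had 0.59 ± 0.13 in the opposite direction (adjusted p = 0.0548). Among 18 genes of TGF-beta and activin signalling 9 were positive and 9 negative, the median was -0.01 and none passed (limma; 3 unadjusted). The receptor gene Tgfbr1 had -0.62 ± 0.14 (adjusted p = 0.0664), while the ligand gene Tgfb1 had 0.42 ± 0.19.

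Heparan sulfate genes were 29, with a median of 0.02 and with 2 higher and 2 lower at an unadjusted p under 0.05 (limma). Of these 29, Hs3st1 fell and 28 did not pass. The next largest were Extl1 (0.45 ± 0.14, SE), a chain-extending enzyme gene, and Hpse (0.39 ± 0.14), whose product heparanase cuts the chains. The proteins that carry these chains, 10 syndecans and glypicans, had 8 positive differences and a median of 0.13, and none passed (limma; 3 unadjusted). They were led by Sdc2 (0.53 ± 0.13; adjusted p = 0.0838) and Sdc4 (0.38 ± 0.14).

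In the other lists of glycan genes and lectins none passed the threshold in limma. Of 19 sialyltransferases 12 were positive, the median was 0.04 and 3 had an unadjusted p under 0.05, St3gal3 (0.42 ± 0.12, SE) and St6galnac6 (0.34 ± 0.08) among them. Of 10 fucosyltransferases 5 were positive, with a median of -0.02 and 2 at an unadjusted p under 0.05. Of 20 genes that start O-GalNAc glycans 9 were positive, with a median of -0.02 and 1 unadjusted. Of 28 lysosomal genes of glycan breakdown 15 were positive, the median was 0.01, and 9 had an unadjusted p under 0.05, with 35.7% not overlapping between groups. Of these 9, 6 were lower, among them Galc, Hyal1 (-0.96 ± 0.27), a hyaluronidase gene, and Idua (-0.51 ± 0.13), whose enzyme degrades heparan and dermatan sulfate. The 3 higher were Galns (0.29 ± 0.09), Hexa (0.30 ± 0.12) and Gm2a (0.20 ± 0.08), which serve the breakdown of keratan sulfate and gangliosides. Of 9 Siglecs, the sialic acid-binding lectins of leukocytes, 3 were positive, with a median of -0.06 and 0 unadjusted. Of 9 selectins and ligands 4 were positive, with a median of -0.14 and 2 unadjusted, Podxl2 (-0.63 ± 0.19) being the largest.

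**Figure D4:**
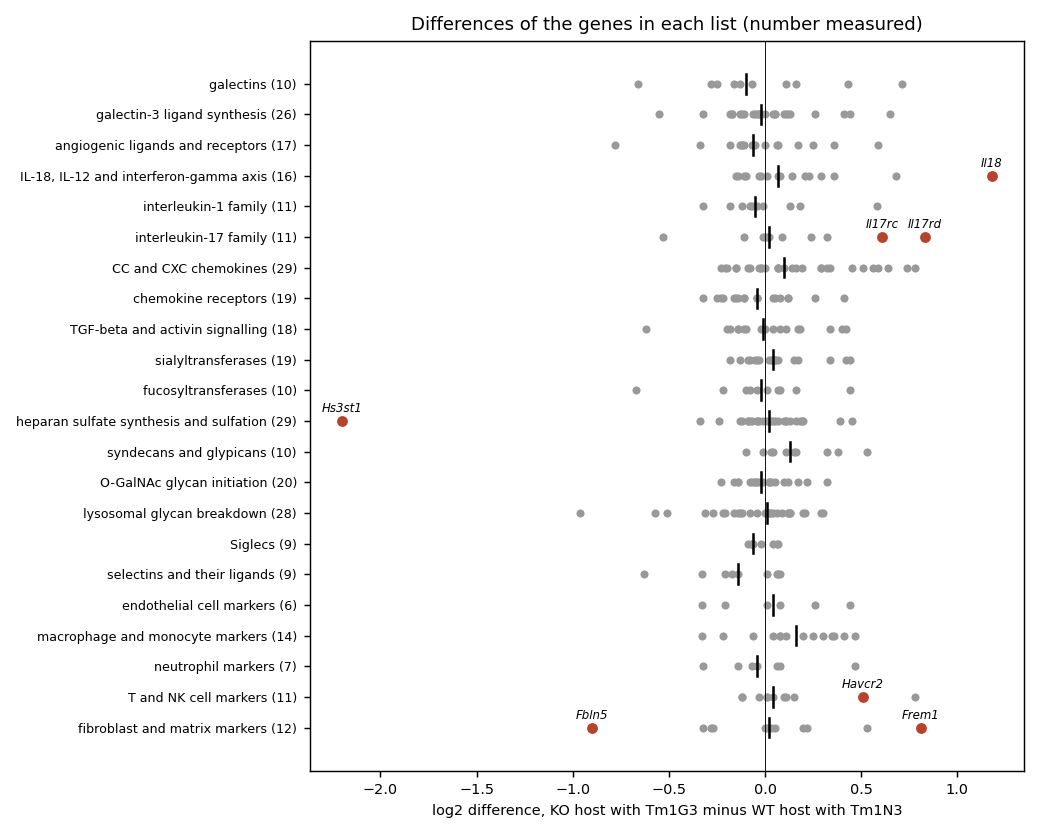
Log2 differences (KO/Tm1G3 minus WT/Tm1N3, horizontal axis) of the measured genes of 22 lists, 1 point per gene, with the number measured in brackets and the median as a black bar. Red named points passed an adjusted p of 0.05 over all probe sets. Medians lie between -0.14 and 0.16, and 7 genes are named.

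Marker lists of other cells were read beside these results. Of 14 measured macrophage and monocyte markers 11 had positive differences, with a median of 0.16, and none passed (limma; 0 unadjusted). Their mean level ran from 6.06 to 6.77 over the WT/Tm1N3 arrays and from 6.29 to 6.79 over the KO/Tm1G3 arrays, so the groups overlapped, and the part of these cells in the Il18, Havcr2 and Il3ra differences was not tested. T and NK cell markers had 8 positive differences of 11 and a median of 0.04, with Havcr2 past the threshold. Their mean level was 4.36 to 4.58 in WT/Tm1N3 and 4.56 to 4.72 in KO/Tm1G3. Without Havcr2 and Ccl5, which had an unadjusted p under 0.05 themselves, the mean of the other 9 was 3.81 to 4.04 against 3.90 to 4.06.

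Of 6 endothelial markers 4 were positive, with a median of 0.04 and none past the threshold (limma; 1 unadjusted), Icam2 (0.44 ± 0.12, SE) being the largest, and their mean level was 7.14 to 7.44 in WT/Tm1N3 against 7.25 to 7.59 in KO/Tm1G3. Neutrophil markers had 3 positive differences of 7 and a median of -0.04, with none past the threshold (limma; 1 unadjusted) and mean levels of 4.89 to 5.42 against 5.04 to 5.23. Of 12 fibroblast and matrix genes Frem1 rose and Fbln5 fell, the median was 0.02, and the mean level was 5.87 to 6.44 against 5.88 to 6.25. At an unadjusted p under 0.05 (limma) 2 of these genes were higher and 2 lower, and 33.3% did not overlap between groups. The collagen-binding proteoglycan genes Dcn (0.20 ± 0.67) and Lum (-0.28 ± 0.58) had standard errors larger than their differences. The 3 measured melanocyte-lineage genes were Kit, Mcoln3 (-0.62 ± 0.18), an endolysosomal channel gene, and Mcam (-0.61 ± 0.21), an adhesion molecule of melanoma cells, none of which passed (limma; 3 unadjusted).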

How the data were processed

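Total RNA was extracted from tumours with Trizol and made into biotinylated cRNA for an Affymetrix array, as the labels' protocols state. The authors deposited log2 values, and RMA, which corrects background, quantile-normalizes and summarises probes, is the method named, per the submitters' processing notes. The array build and the RMA version were not stated, and the values were used as deposited.

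Of 1246 probe sets 963 matched 1 symbol through their RefSeq accession and a GRCm38.p6 gene table (909 symbols), and 283 stayed unnamed. The suffix of 366 marks shared probes. Group means were fitted to all 12 arrays with limma 3.58.1 (lmFit, eBayes) in R 4.3.3, with 8 residual and 2.39 prior degrees of freedom, and p-values were adjusted by Benjamini-Hochberg over 1246 probe sets. Fold changes are antilogs of log2 differences. Errors are moderated SEs. The procedure was tested on simulated data.

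The members, the 23 gene lists and the tests were chosen with earlier results of these data known. Named genes were up to 15 on either side past the threshold without overlap between groups, Lgals3, the members past the threshold and the 3 others farthest from 0 in each list with at least 5 measured genes, and the 5 with the smallest p of the host part and the interaction. The contrast of WT/Tm1G3 with KO/Tm1N3, the genes just outside the threshold and other genes said to be picked by value were added later. The brightest probe set stood for a gene in a list. Promoter windows were taken from RefSeq, GRCm38.p6, and matched all 11 genes.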

Additional observations from a re-analysis of the deposited data

How the results depend on the processing

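Of 1494 combinations of gene and setting, 1396 kept their side of the threshold, 26 lost a call and 72 gained one. The count of 11 was 20 with the lowest 25% of probe sets by mean level left out, 17 without probe sets of shared suffix, 17 with only the 6 arrays of both groups and 93 with array weights, and it ran from 5 to 23 with 1 array left out. It was 15 after quantile normalization again and 13 after centring. The line count of 53 was 131 with array weights and ran from 32 to 63 with 1 array left out. Dropping probe sets lowers the number adjusted over, and otherwise the cause was not tested. Host part and interaction had 0 in every setting run. Lgals3 ran from -0.91 to -0.45 with 1 array left out. Of the 11 genes, Fbln5 lost its call after quantile normalization again and Cd209e with 6 arrays. Same-numbered arrays did not deviate together throughout (correlations 0.116, 0.304 and 0.0132, with 3 of 6 arrays closest to their own number), so the replicate number was not taken as a pairing. With it as a block the counts were 16 for the combined difference, 50 for the line part and 0 for the host part and interaction. Lgals3 stayed at -0.66 (limma, adjusted p = 0.338 with the block). Signal over background could not be examined without scanner files.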
